A study of Mus musculus with 12 samples.

Results

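Cyp2e1, the cytochrome P450 that oxidises ethanol in the central zone of the liver lobule, was lowered far less in 3 of the 7 alcohol-fed (AF) livers of this series than in the other 4, and these 3 livers were compared here with the 5 pair-fed (PF) livers across all genes. They were chosen by the measured level of that single gene: an AF library entered when its Cyp2e1 count (ENSMUSG00000025479, chromosome 7) was at least 3000 per 1000000 counts of its column. AF replicates 2, 6 and 7 met this rule, which makes 3 of the 12 libraries in the series. On this scale, Cyp2e1 stood at 8542, 10480, 8531, 8166 and 8507 in PF replicates 1 to 5, at 6005, 5786 and 6942 in AF replicates 2, 6 and 7, and at 643, 1293, 1375 and 1246 in AF replicates 1, 3, 4 and 5. The member just inside the cut was at 5786 and the liver just outside it at 1375, so that cuts at 2000 and 5000 took the same 3 livers. The name "retained" holds only in part: all 3 chosen livers lay below every PF liver, with a mean of 5866 ± 586 CPM (counts per 1000000 after scaling by library factors, SD, n = 3) against 9226 ± 1335 (SD, n = 5), a ratio of 0.636. They are called below the AF livers over the Cyp2e1 cut. Cyp2e1 itself is given without a test because it set the choice.

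The animals were male C57BL6/J mice, labelled with an age of 8-week. In the intragastric model of alcohol-associated steatohepatitis (ASH), mice first eat a solid Western diet rich in cholesterol and saturated fat, or regular chow. They are then given a high-fat liquid diet through a gastric tube for 8 weeks, with the solid Western diet alongside. AF mice received ethanol in that liquid, raised to 27 g/kg per day, with a weekly binge of 5 g/kg, and were killed 1 day after the last binge, while PF mice received an isocaloric high-fat liquid diet without it. Which mice had chow, and what solid diet the PF mice ate, are not given in the sources used here. A difference in solid food between the groups therefore cannot be told apart from ethanol. Whole liver was sequenced as poly(A) RNA. Separate animals are implied by the replicate labels, but the choice by an outcome means that a p-value describes these 8 libraries and not AF mice at large, and genes that follow Cyp2e1 among AF livers were drawn towards the PF level by it.

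Ethanol is oxidised to acetaldehyde by alcohol dehydrogenases in the cytosol, by CYP2E1 in the endoplasmic reticulum and to a small extent by catalase, and acetaldehyde dehydrogenases then yield acetate. CYP2E1 also releases reactive oxygen species, and the transcription factors NRF2, which senses oxidants and electrophiles, and ATF4 with CHOP, which act in the integrated stress response, are the best known hepatic answers to such stress. The central zone that holds Cyp2e1 also makes glutamine, takes up ammonium and carries most of the inducible P450 enzymes, whose genes respond to the nuclear receptors CAR and PXR.

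Library totals ran from 24129900 to 30578639 counts. On the first principal component of all genes, with 59.3% of the variance, the PF livers lay between -70.1 and -52.2, AF replicates 6, 7 and 2 at -4.55, 22.7 and 24.4, and the other AF livers between 49.0 and 79.4. The livers over the cut therefore lay between the others, with AF replicate 6 nearest to PF. The library factors (trimmed mean of M-values, TMM) were 0.909 to 1.002 in PF, 0.977 to 1.144 in the livers over the cut and 1.30 to 1.5 in the other AF livers. Hepatocyte markers summed to 106364 to 148916 CPM in PF and 89632 to 115608 CPM in the livers over the cut, which were hepatocyte-rich as labelled. Of these 12 markers 3 were lower and 1 higher in the test below, and 1 was lower without AF replicate 2 or 7. All values below are TMM-scaled CPM, listed for PF replicates 1 to 5 and then for AF replicates 2, 6 and 7, and changes are log2 fold changes (AF over the cut against PF) with SE and Benjamini-Hochberg adjusted p from edgeR's quasi-likelihood test over all genes.

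Of 13900 genes tested, 2848 (20.5%) passed an adjusted p of 0.05 in edgeR, 1413 of them higher (10.2%) and 1435 lower (10.3%) in the livers over the cut, with a median change of 0.02 over all genes. These percentages are the background against which the counts of each gene list below are to be read. AF replicate 7 carried much of the count, since 1383 genes (700 higher, 683 lower) passed without it. When libraries were scaled by their totals alone, the median gene rose to 0.17 and 2394 genes were called higher against 793 lower, so that 75.1% of the calls were higher in place of 49.6%.

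**Figure D1:**
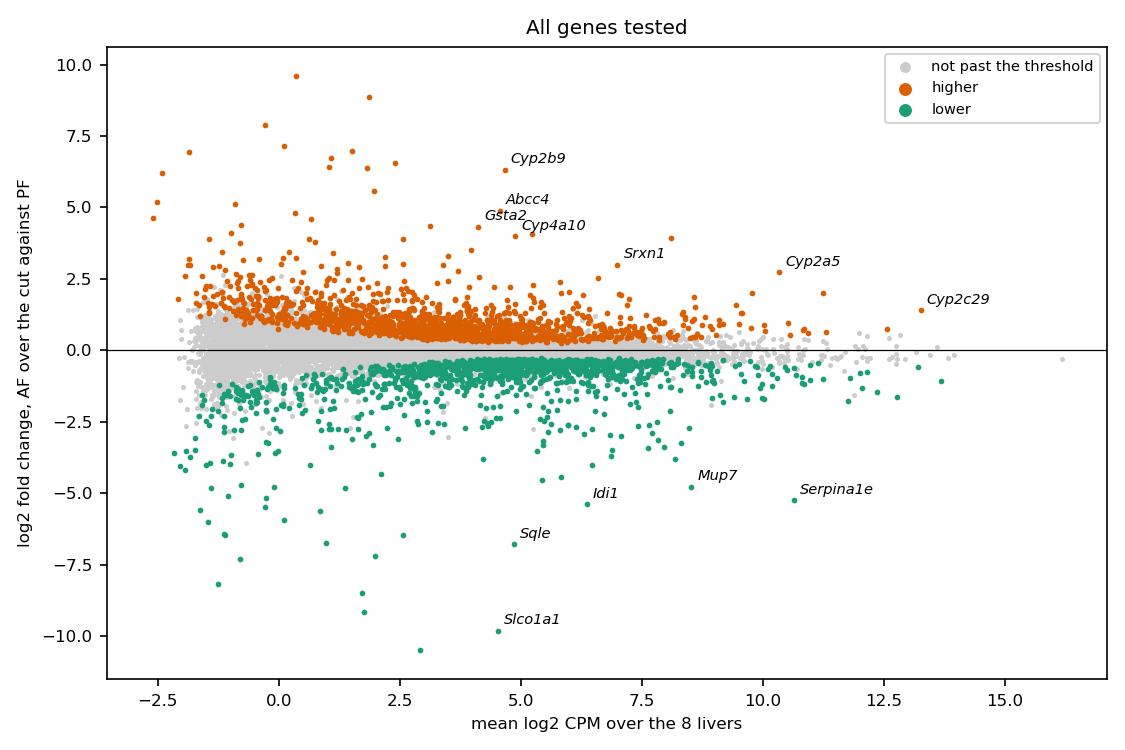
Each point is 1 gene tested, with the mean level over the 8 libraries on the x axis (log2 CPM) and the log2 fold change of the 3 AF livers over the Cyp2e1 cut against 5 PF livers on the y axis. Genes past an adjusted p of 0.05 (edgeR), 1413 higher and 1435 lower, are coloured, and the lowest of the abundant genes are of cholesterol synthesis and of the male-biased group.

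Cholesterol synthesis was the most uniformly lowered gene group in the livers over the cut. Of 24 genes for cholesterol synthesis and uptake, 23 fell and none rose, with a median change of -2.79 (no member was higher in DESeq2 or limma-voom, or at an unadjusted p under 0.05), and the count was 23 without any one of the 3 AF livers and on library totals. Summed over the list, the PF livers held 4913 to 6351 CPM and the AF livers over the cut 1185, 1285 and 1598 CPM, next to 1039 to 1214 CPM in the other AF livers. Sqle (ENSMUSG00000022351), squalene epoxidase, stood at 207, 154, 190, 154 and 200 CPM in PF and at 0.871, 0.839 and 3.15 CPM in the AF livers over the cut. All 3 were far under the lowest PF liver, a change of -6.78 ± 0.46 (SE, adjusted p = 2.47e-05, edgeR). Idi1, the isopentenyl diphosphate isomerase, was at 354, 324, 354, 282 and 351 CPM against 6.76, 8.25 and 9.05 CPM, with no overlap and a change of -5.37 ± 0.16 (adjusted p = 2.14e-07, edgeR).

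Other enzymes of the pathway fell too, among them Fdps (-4.55 ± 0.25), which shares its strand with the overlapping gene Gm43738, and Nsdhl (-4.45 ± 0.15). Of the regulators, Insig1, which holds the SREBP precursors in the endoplasmic reticulum, fell by 3.39 ± 0.21 on the log2 scale and Srebf2, the gene of SREBP2, fell by 0.80 ± 0.11 (adjusted p = 0.00139).

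In a list of 30 genes of fatty acid synthesis and lipid droplets, of which 29 were tested, 11 fell and 7 rose, with a median of -0.24. Fasn, fatty acid synthase, was at 652, 269, 610, 351 and 242 CPM in PF and at 70.2, 41.8 and 97.8 CPM in the livers over the cut (-2.60 ± 0.42, adjusted p = 0.00297). Its PF values spread widely, but none came near the AF values. Thrsp, a lipogenic regulator, was at 636, 531, 723, 468 and 326 CPM against 42.0, 49.3 and 92.7 CPM (-3.13 ± 0.34, adjusted p = 4.32e-04), and Srebf1, the gene of SREBP1, at 86.9, 68.2, 157, 122 and 85.2 CPM against 37.2, 17.3 and 36.7 CPM (-1.77 ± 0.33, adjusted p = 0.00575). Scd1, the stearoyl-CoA desaturase, fell by 1.07 ± 0.29 (adjusted p = 0.0265), a call that was lost in 6 alternatives, among them those without AF replicate 6 or 7 and on library totals.

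Some droplet proteins of the same list rose. Plin2, the ubiquitous perilipin, was at 239, 311, 277, 236 and 251 CPM against 334, 932 and 437 CPM (1.11 ± 0.28, adjusted p = 0.0199). Cidec, which joins small droplets into large ones, was at 0.222, 0.712, 0.449, 0.527 and 0.285 CPM against 1.46, 30.5 and 5.87 CPM (4.82 ± 0.82, adjusted p = 0.00385). AF replicate 6 was thus the highest liver for both, AF replicate 2 lay closest to PF, and the Cidec call was lost with limma-voom. Plin3 and Plin4 rose too (0.58 and 2.07), though the Plin4 call was lost in limma-voom, without AF replicate 6 or 7 and without PF replicate 1, 3, 4 or 5. Plin5 did not pass (0.73, adjusted p = 0.164), and Pnpla3, a droplet protein, fell by 5.18. Without AF replicate 6 the list counted 4 higher and 10 lower, and without AF replicate 7 it counted 3 higher and 9 lower.

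**Figure D2:**
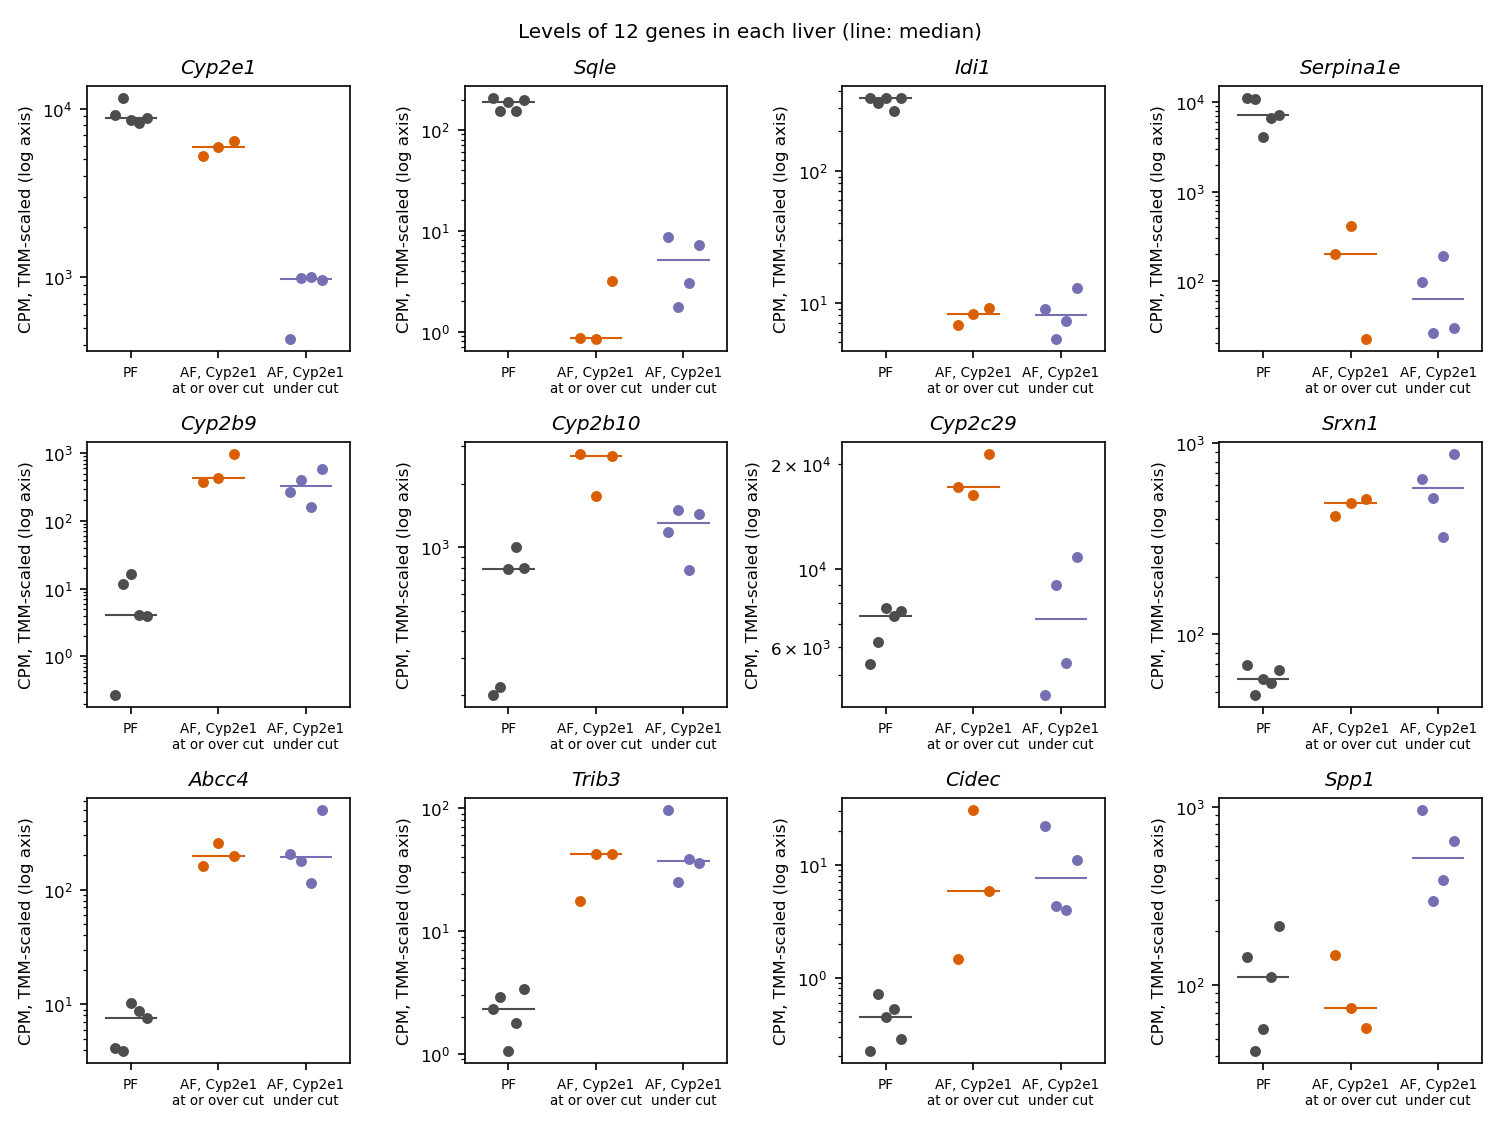
Level of 12 genes in each liver (TMM-scaled CPM, log axis), grouped as 5 PF livers, the 3 AF livers over the Cyp2e1 cut and the 4 other AF livers, 1 point per liver. Lines are medians. Cyp2e1 is shown as the gene of the rule, Sqle, Idi1 and Serpina1e lie below the PF points in all AF livers, Cyp2c29 is highest in the livers over the cut (16275 to 21287 CPM), and Spp1 is highest in the other AF livers (296 to 956 CPM).

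Male-biased liver genes, whose level depends on the pulsed male pattern of growth hormone, fell widely. Their summed level fell by more in AF replicate 7 than in AF replicates 2 and 6. Of 23 members 16 fell and none rose, with a median of -2.60. With DESeq2 and with limma-voom 20 fell and none rose, as at an unadjusted p under 0.05. Summed, the PF livers held 19298 to 33427 CPM and AF replicates 2, 6 and 7 held 8697, 10350 and 2843 CPM, all above the 832 to 1721 CPM of the other AF livers. Slco1a1, an organic anion uptake transporter, was at 238, 510, 113, 352 and 346 CPM against 0.139, 0.604 and 0.281 CPM (-9.81 ± 0.70, adjusted p = 3.37e-05), with 31 reads in all in the 3 livers. Hsd3b5, a hydroxysteroid dehydrogenase of male liver, held 12602 reads over the PF livers and 6 over the AF livers over the cut. Serpina1e (ENSMUSG00000072849), an alpha-1 antitrypsin paralog, was at 11140, 10820, 4069, 6634 and 7114 CPM against 199, 412 and 22.3 CPM (-5.24 ± 0.87, adjusted p = 0.00345). The 3 livers were all far below the lowest PF liver and differed among themselves, AF replicate 7 being lowest. Reads of Serpina1e may be shared with its paralogs.

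Mup7 and Mup3, of the major urinary proteins, which are secreted pheromone carriers, were lowest in AF replicate 7 among the 3 livers over the cut. Mup7 was at 2155, 1155, 694, 2187 and 1526 CPM against 113, 46.4 and 10.9 CPM (-4.77 ± 0.76, adjusted p = 0.00273). Mup3 was at 5415, 8709, 5288, 5545 and 6293 CPM against 3604, 2721 and 1172 CPM (-1.32 ± 0.34, adjusted p = 0.0222, lost in the fit of 12 libraries in 3 groups), whereas the other AF livers held it at 36.5 to 219 CPM. Mup genes are near-identical copies, and the split of reads among them is uncertain. Cyp2d9, a male-specific steroid hydroxylase, did not pass, at 953, 897, 537, 634 and 637 CPM against 709, 964 and 508 CPM (-0.01 ± 0.24, adjusted p = 0.982), while the other AF livers had 70.0, 184, 139 and 141 CPM. This gene overlaps Gm46501 on its strand.

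Some female-biased liver genes rose from very low PF levels. Of 24 members 15 passed the filter on low counts, which some could do only through their AF level, and 7 of these rose and none fell (11 and 0 at an unadjusted p under 0.05, 8 and 0 in DESeq2, 6 and 0 in limma-voom). The sum of the list was 84.7 to 148 CPM in PF, then 664, 978 and 1970 CPM in AF replicates 2, 6 and 7, and 1071 to 3733 CPM in the other AF livers. Cyp2b9, a female-predominant P450, was at 0.266, 11.7, 16.5, 4.11 and 3.98 CPM against 375, 425 and 968 CPM (6.33 ± 0.83, adjusted p = 0.00116). Its neighbour Cyp2b13 held 12 reads over the PF livers and 48.8, 22.7 and 162 CPM in the AF livers over the cut (9.61 ± 0.82, adjusted p = 9.74e-05). Cyp2a4, a testosterone hydroxylase, was between 0.122 and 0.913 CPM in PF and at 49.6, 276 and 237 CPM (8.86 ± 0.65, adjusted p = 3.98e-05). These enzymes have close paralogs, Cyp2b10 for the first 2 and Cyp2a5 for Cyp2a4, and reads may be shared with them. Without AF replicate 7 the list counted 4 higher and 1 lower, and without AF replicate 6 it counted 11 higher.

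Growth hormone signalling genes themselves moved less. Of 16 members 14 were tested, 3 rose and 3 fell, with a median of -0.52, and 1 rose and 2 fell without AF replicate 7. Ghr, the growth hormone receptor, was at 646, 764, 689, 667 and 673 CPM in PF against 324, 359 and 251 CPM (-1.14 ± 0.14, adjusted p = 6.78e-04), and at 100 to 174 CPM in the other AF livers. Its groups did not overlap. Onecut1, the hepatocyte factor HNF6, was at 5.06, 6.70, 7.98, 8.95 and 3.74 CPM against 1.99, 2.52 and 1.72 CPM (-1.65 ± 0.30, adjusted p = 0.00528). Igf1, the hormone made under GHR signalling, fell by 0.52 (adjusted p = 0.0265), a call that was lost without AF replicate 2 or 7 or PF replicate 3 or 5, and Igfbp3, a carrier of IGF1 in blood, rose by 1.06.

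NRF2 targets and glutathione enzymes rose together. Of 32 members 31 were tested, 22 rose and none fell, with a median of 1.15 (23 and 0 at an unadjusted p under 0.05, 21 and 0 in DESeq2, 22 and 0 in limma-voom). The sum ran from 6515 to 7811 CPM in PF and was 13630, 21794 and 12381 CPM in AF replicates 2, 6 and 7, inside or slightly above the 10244 to 20113 CPM of the other AF livers. Srxn1, which repairs oxidised peroxiredoxins, was at 68.5, 47.8, 57.9, 55.4 and 64.8 CPM against 415, 483 and 512 CPM (3.00 ± 0.13, adjusted p = 2.17e-06). The lowest AF value was several times the highest PF value. Nqo1, a quinone reductase, was at 11.1, 7.79, 11.2, 6.71 and 8.98 CPM against 47.5, 69.1 and 47.3 CPM (2.57 ± 0.19, adjusted p = 4.67e-05). Abcc4, which exports conjugates into blood, was at 4.13, 3.89, 10.2, 8.78 and 7.60 CPM against 162, 258 and 198 CPM (4.89 ± 0.32, adjusted p = 1.99e-05), and at 206, 178, 114 and 496 CPM in the other AF livers.

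Within the glutathione branch, Slc7a11, the cystine importer, stood at 24 reads over the PF livers and at 7.04, 64.3 and 11.1 CPM in the AF livers over the cut (7.13 ± 0.88, adjusted p = 8.3e-04), with AF replicate 6 highest. Gstm1, an abundant glutathione transferase, was at 1612, 1323, 1370, 1330 and 1811 CPM against 4293, 9503 and 3967 CPM (1.99 ± 0.27, adjusted p = 0.00133). AF replicate 6 was again the highest, as it was for Hmox1, the heme oxygenase, with 74.1, 284 and 78.5 CPM against 31 to 41.9 CPM in PF (2.00 ± 0.38, adjusted p = 0.00674). The 2 subunits of glutamate-cysteine ligase, which makes the glutathione precursor, came out differently. Gclc, the catalytic one, rose by 1.35, whereas Gclm, the modifier, was at 204, 239, 205, 205 and 195 CPM against 209, 236 and 187 CPM (0.01 ± 0.11, adjusted p = 0.965), a gene that overlaps Gm6061. Nfe2l2, the gene of NRF2, did not pass (0.29, adjusted p = 0.142), and Keap1, its cytosolic inhibitor, rose by 0.43 (adjusted p = 0.0169), a call that was lost without AF replicate 7. Gst genes have close paralogs, so that the split among Gsta1, Gsta2, Gstm1 and Gstm3 is uncertain, and DESeq2 gave no adjusted p for Gsta1 (6.73).

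Drug-metabolising P450 enzymes rose in the livers over the cut, and several were higher there than in any other liver of the series. Of 21 members (Cyp2e1 is not one of them) 10 rose and 1 fell, with a median of 0.64, and the counts were 9 to 10 higher and 1 to 2 lower when any 1 of the 3 AF livers was left out, and 13 higher and 1 lower on library totals. Their summed level was 18526 to 23017 CPM in PF and 43858, 42398 and 49634 CPM in AF replicates 2, 6 and 7, against 12525 to 26548 CPM in the other AF livers. Cyp2c29 (ENSMUSG00000003053), a retinoid and drug hydroxylase, was at 5390, 6192, 7787, 7360 and 7591 CPM in PF, at 17209, 16275 and 21287 CPM in the livers over the cut and at 4382, 8996, 5410 and 10827 CPM in the others. It rose by 1.41 ± 0.18 (adjusted p = 9.15e-04), and no other liver reached the lowest of the 3. Because the choice was made on another P450 of the same zone, a higher level in the chosen than in the other AF livers is a description only.

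Cyp2a5, the coumarin hydroxylase, was at 640, 850, 582, 676 and 507 CPM against 2943, 6277 and 3744 CPM (2.73 ± 0.25, adjusted p = 1.38e-04), and Cyp1a2, which oxidises caffeine and arylamines, at 575, 670, 462, 556 and 477 CPM against 1034, 1864 and 1204 CPM (1.32 ± 0.20, adjusted p = 0.002). AF replicate 6 was highest for both. Cyp2b10, the classic CAR target, was at 199, 219, 788, 1005 and 795 CPM against 2760, 1754 and 2689 CPM (2.00 ± 0.50, adjusted p = 0.02). PF replicates 1 and 2 were low for it and the groups did not overlap, but the call was lost without AF replicate 7. Por, the reductase that gives electrons to all microsomal P450 enzymes, was at 177, 234, 190, 217 and 149 CPM against 322, 351 and 465 CPM (0.97 ± 0.17, adjusted p = 0.00396), and at 140 to 206 CPM in the other AF livers. Cyp3a11, the main PXR target, rose by 0.75 ± 0.21 (adjusted p = 0.0331) with AF replicate 6 at 5682 CPM inside the PF range, and its call was lost in the fit of 12 libraries in 3 groups, without AF replicate 2 or 7 and without PF replicate 1, 2, 3 or 4. Cyp2j5, an arachidonic acid epoxygenase, was the member that fell (-0.82 ± 0.17, adjusted p = 0.0107). Neither of these receptors passed, with Nr1i3 (CAR) at 0.64 (adjusted p = 0.246) and Nr1i2 (PXR) at 0.01 (adjusted p = 0.983). Cyp2a, Cyp2b and Cyp2c genes are tandem paralogs among which reads may be shared.

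**Figure D3:**
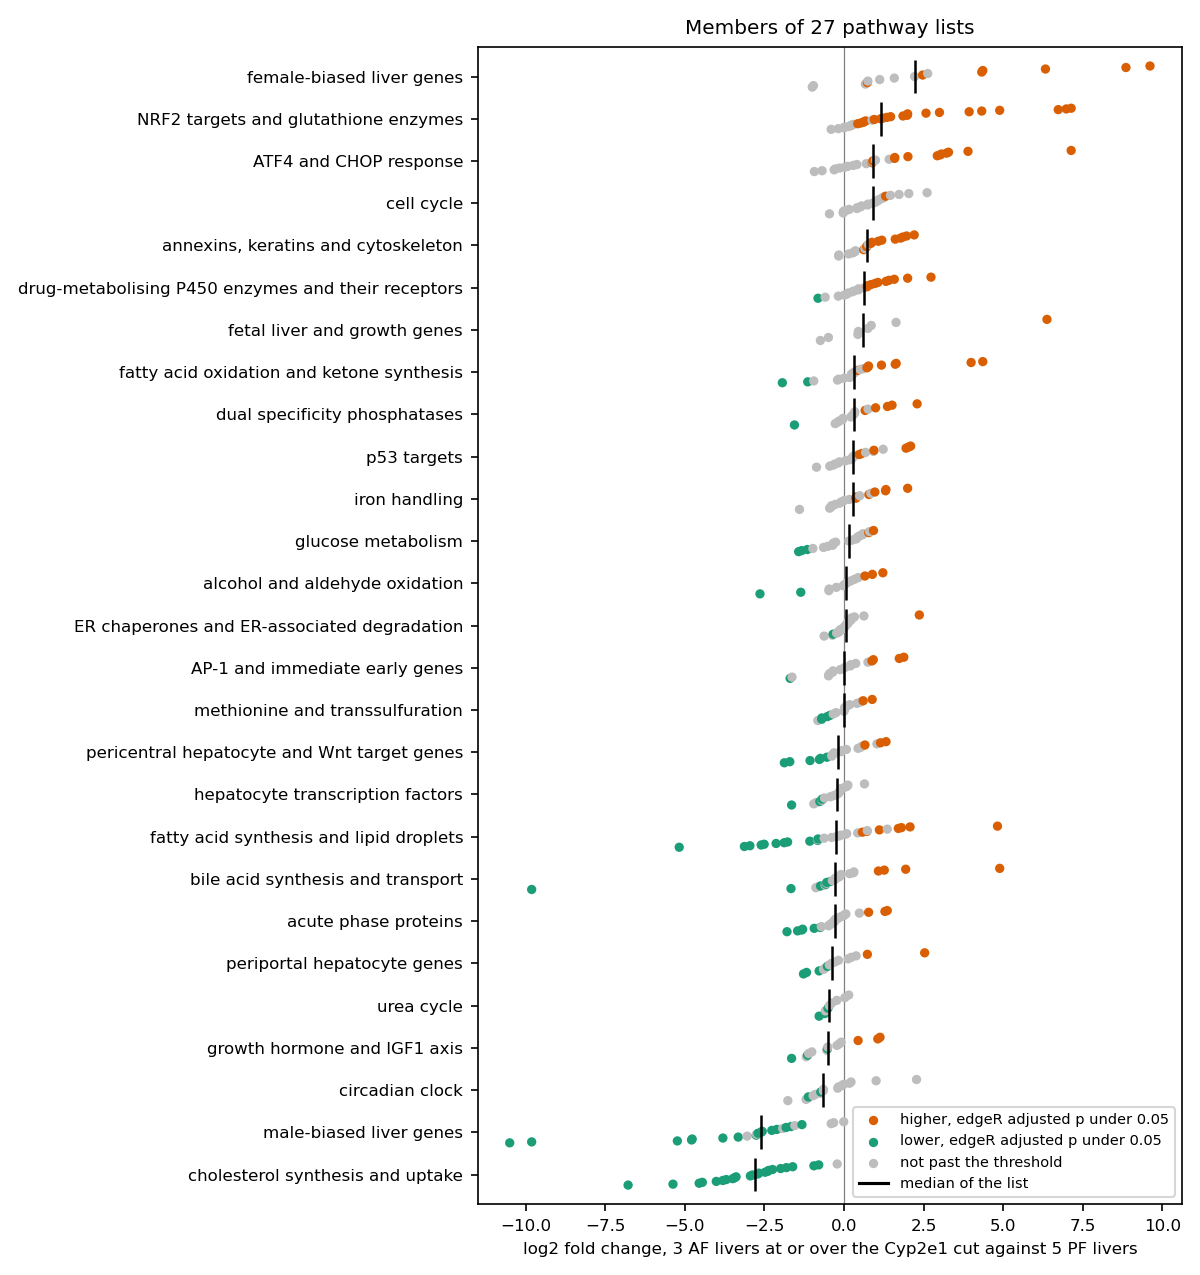
Each point is a tested member of 1 of 27 pathway lists, with the log2 fold change of the 3 AF livers over the cut against 5 PF livers on the x axis, coloured where it passed in edgeR (adjusted p of 0.05), and black bars are list medians. Cholesterol genes (0 higher, 23 lower) and male-biased genes (0 higher, 16 lower) lie on the left, and NRF2 targets (22 higher) and ATF4 and CHOP genes (12 higher) on the right.

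Genes of the ATF4 and CHOP response rose in part, without the chaperones of the endoplasmic reticulum. Of 26 members 25 were tested, 12 rose and none fell (median 0.90; 16 and 1 at an unadjusted p under 0.05, 13 and 0 in DESeq2, 11 and 0 in limma-voom), and 11 or 12 rose when any 1 of the 3 AF livers was left out. Of 23 chaperones and degradation factors of the endoplasmic reticulum 1 rose and 1 fell (median 0.05), so the second list stood under the background share. Trib3, a pseudokinase induced by ATF4 and CHOP, was at 2.31, 2.89, 1.05, 1.79 and 3.37 CPM against 17.4, 42.0 and 42.0 CPM (3.89 ± 0.36, adjusted p = 1.74e-04). Atf3, the repressor of the same pathway, was at 2.98, 3.39, 2.96, 2.07 and 2.64 CPM against 12.4, 38.3 and 17.7 CPM (3.02 ± 0.32, adjusted p = 3.6e-04), and AF replicate 1, with the lowest Cyp2e1, held 211 CPM. Ddit3, the gene of CHOP, was at 2.71, 2.39, 1.65, 3.44 and 2.36 CPM against 5.65, 11.6 and 13 CPM (2.01 ± 0.29, adjusted p = 0.00167). Ddit3 lies opposite to Mars and Gm4189, and the strand setting of the counts is not given in the sources used here. Fgf21, the stress hormone of the liver, was at 0.355, 1.30, 0.375, 0.105 and 0.407 CPM against 3.28, 2.99 and 7.83 CPM (3.22 ± 0.58, adjusted p = 0.00503). Slc7a11 belongs to this list too. Vldlr, a lipoprotein receptor, rose by 3.28 ± 0.41, Psat1, of serine synthesis, by 3.06 ± 0.42, and Nupr1, a stress-induced chromatin protein, by 2.93 ± 0.48. The other 13 tested members did not pass, among them Asns (0.89, adjusted p = 0.303), Ppp1r15a (0.03, adjusted p = 0.931) and Chac1 (-0.93, adjusted p = 0.351). Atf4 itself was at 86.4, 62.7, 99.7, 69.5 and 77.2 CPM against 95, 109 and 110 CPM (0.40 ± 0.15, adjusted p = 0.0795), and Hspa5, the chaperone BiP, at 1031, 1354, 1197, 1679 and 1661 CPM against 1657, 1932 and 1252 CPM (0.22 ± 0.20, adjusted p = 0.452).

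The core of the C/EBP-ATF response element, TGATGNAA, which is bound by dimers of ATF4 or CHOP with C/EBP proteins, was searched on both strands in RefSeq promoters (GRCm38.p6, from 250 bases before to 50 after each start, 300 bases). Of the 26 members 23 were matched to promoters, and 9 of these genes held the core in any of their promoters. The core was held by 6 of the 11 matched members that rose, and by 4.51% (1219) of all 27025 genes with promoters. The stretches of 30 bases around it are printed for the 6 members that rose and held it, so that the letters can be compared between them, 5′ to 3′ on the strand of the gene with the match in capitals (TTGCATCA and TTACATCA are the core read from the opposite strand).
Atf3, chr1:191183425-191183454: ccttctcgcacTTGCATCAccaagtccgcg
Fgf21, chr7:45615611-45615640: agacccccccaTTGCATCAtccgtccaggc
Slc7a11, chr3:50443661-50443690: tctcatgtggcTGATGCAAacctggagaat
Vldlr, chr19:27216809-27216838: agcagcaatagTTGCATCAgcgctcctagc
Nupr1, chr7:126625562-126625591: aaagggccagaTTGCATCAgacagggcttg
Trib3, chr2:152344028-152344057: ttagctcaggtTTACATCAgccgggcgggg
The first 5 windows held the same 8 letters, Slc7a11 on the strand of the gene and the others on the opposite one, and Trib3 differed from them by a single letter at the free position. Slc7a11 held a second match close to the first, on the opposite strand. For the NRF2 list, the core of the antioxidant response element, TGACNNNGC, was held by 10 of 28 matched genes. It was held by 5 of the 18 matched members that rose, a smaller share than over all matched members, and by 13.99% of all genes with promoters. The NRF2 windows are not printed. Both lists were drawn up from genes known for these responses, so a share above that of all genes is no result about these livers. Matches are descriptions of letters in these windows and show no binding.

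Of the enzymes that oxidise ethanol and its products, the main ones did not pass the test. In the list of 14 genes, 3 rose and 2 fell (median 0.07), with 1 higher without AF replicate 2 or 7 and 4 lower without AF replicate 6. Adh1, the main hepatic alcohol dehydrogenase, was at 1838, 1823, 1602, 1520 and 1497 CPM against 1396, 2065 and 1873 CPM (0.10, adjusted p = 0.658), and at 732 to 1338 CPM in the other AF livers. Mitochondrial Aldh2 (0.22, adjusted p = 0.341) and catalase, Cat (0.04, adjusted p = 0.883), did not pass either. Adh4, a dehydrogenase of retinol and longer alcohols, was at 186, 181, 193, 173 and 190 CPM against 90.9, 83.1 and 41.8 CPM (-1.36 ± 0.22, adjusted p = 0.00298), with AF replicate 7 lowest. Acss2, which turns acetate into cytosolic acetyl-CoA and is also an SREBP target, was at 414, 297, 424, 252 and 330 CPM against 46.8, 58.8 and 59.5 CPM (-2.64 ± 0.20, adjusted p = 5.09e-05), and it lies opposite to Ggt7 and Gss. Among those that rose, Aldh3a2, a fatty aldehyde dehydrogenase, changed by 0.89 and Aldh1a1, a retinal dehydrogenase, by 0.66 ± 0.18 (adjusted p = 0.0312). The first call was lost without AF replicate 7, and the second in the fit of 12 libraries in 3 groups, without AF replicate 2 or 6 and without PF replicate 1, 2, 4 or 5.

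Genes of the pericentral zone split, although Cyp2e1, a marker of this zone, had been used to choose the livers. Of 20 members 6 fell and 3 rose, with a median of -0.20. Glul, glutamine synthetase of the innermost pericentral cells, was at 981, 1046, 1067, 1062 and 1044 CPM against 466, 502 and 520 CPM (-1.07 ± 0.10, adjusted p = 2e-04), and at 107 to 239 CPM in the other AF livers. Rgn, regucalcin, was at 1535, 1683, 1730, 1567 and 1669 CPM against 590, 426 and 491 CPM (-1.70 ± 0.14, adjusted p = 7.26e-05). Lgr5, the R-spondin receptor of Wnt-responsive hepatocytes, was at 9.73, 8.83, 7.49, 12.2 and 8.74 CPM against 4.11, 1.88 and 1.72 CPM (-1.87 ± 0.30, adjusted p = 0.00295). For these 3 genes the livers over the cut lay below every PF liver. Oat, ornithine aminotransferase, fell less (-0.54 ± 0.12, adjusted p = 0.0131, lost in the fit of 12 libraries in 3 groups), with 816, 936 and 939 CPM over the cut and 62.8 to 295 CPM in the other AF livers. Rhbg, an ammonium transporter, rose by 1.15 ± 0.21 (adjusted p = 0.00561) to 3.21, 4.39 and 3.00 CPM from 1.38 to 1.84 CPM, and shares its strand with Gm38392. Axin2, a direct Wnt target, did not pass (0.57, adjusted p = 0.125). In bulk tissue, fewer cells of a type and less RNA per cell cannot be told apart.

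Of 15 periportal genes 4 fell and 2 rose (median -0.39). Apoa4, an apolipoprotein that binds fat, was at 57.7, 83.5, 43.1, 40.5 and 39.1 CPM against 295, 161 and 460 CPM (2.53 ± 0.33, adjusted p = 0.00115), and it lies opposite to Gm10680 and Gm47528. Cps1, the first enzyme of the urea cycle, was at 4769, 5030, 4584, 6215 and 5222 CPM against 2797, 4244 and 1966 CPM (-0.78 ± 0.24, adjusted p = 0.0424). AF replicate 6 was close to PF for it, and the call was lost on library totals, in the fit of 12 libraries in 3 groups, without AF replicate 2 or 7 and without any 1 PF liver. Of 9 urea cycle genes 3 fell, but this count was 1, 6 and 0 without AF replicates 2, 6 and 7 in turn, and that of the periportal genes lower was 1, 6 and 0.

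Bile acid synthesis and transport held changes in both directions. Of 26 members 25 were tested, 4 rose and 6 fell (median -0.27). Cyp8b1, the sterol hydroxylase that commits bile acids to cholic acid, was at 82.5, 129, 59.4, 65.0 and 84.1 CPM in PF, at 296, 238 and 430 CPM in the livers over the cut and at 22.9, 30.5, 27.4 and 47.1 CPM in the other AF livers. It rose by 1.94 ± 0.26 (adjusted p = 0.00117), and the other AF livers lay on the opposite side of PF. Cyp7a1, the rate-limiting enzyme of bile acid synthesis, did not pass (-0.81, adjusted p = 0.329). Of the exporters, Abcb4, which moves phospholipid into bile, was at 187, 176, 141, 183 and 183 CPM against 302, 333 and 469 CPM (1.08 ± 0.15, adjusted p = 0.00161), and Abcc3, which moves conjugates into blood, was at 184, 268, 231, 247 and 244 CPM against 475, 562 and 654 CPM (1.26 ± 0.14, adjusted p = 5.05e-04). Besides Slco1a1, Slco1b2, an anion uptake carrier, was at 1472, 1727, 1662, 1665 and 1651 CPM against 1100, 1140 and 1064 CPM (-0.57 ± 0.11, adjusted p = 0.00729), a call that was lost when all 12 libraries were fitted in 3 groups. The sodium-dependent uptake carrier Slc10a1 did not pass (-0.37, adjusted p = 0.0915). The alternative pathway's Cyp27a1 (-0.74 ± 0.15) and Cyp7b1 (-1.67 ± 0.37, a gene also in the male-biased list) and the canalicular bile salt pump Abcb11 (-0.54) fell too, but the Abcb11 call was lost on library totals, in the fit of 12 libraries in 3 groups and without AF replicate 7. The canalicular exporter Abcc2 did not pass (0.31, adjusted p = 0.114).

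Fatty acid oxidation genes rose in part, and the count rested on AF replicate 7. Of 25 members 9 rose and 2 fell (median 0.32), but 2 rose and 2 fell without that liver, while 17 rose and 2 fell on library totals. Cyp4a10, a PPARα-induced omega-hydroxylase with close paralogs, was at 2.18, 9.46, 28.9, 23.9 and 12.7 CPM against 71.6, 68.0 and 600 CPM (3.99 ± 0.85, adjusted p = 0.0108). AF replicate 7 exceeded the other AF livers over the cut several times, and the call was lost without it, while DESeq2 gave no adjusted p for this gene. Ppargc1a, the coactivator of mitochondrial genes, was at 10.7, 13.3, 15.1, 25.9 and 23.8 CPM against 4.22, 4.70 and 4.99 CPM (-1.94 ± 0.30, adjusted p = 0.00236), and Fabp1, the hepatic fatty acid carrier, fell by 1.14 ± 0.16 (adjusted p = 0.00132). Ppara itself did not pass (-0.95, adjusted p = 0.056).

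Of 20 hepatocyte transcription factors, 19 of them tested, 3 fell and none rose (median -0.23; 6 and 0 at an unadjusted p under 0.05, 5 and 0 in DESeq2, 4 and 0 in limma-voom), among them Nr5a2, LRH-1, at 81.7, 85.9, 95.8, 90.3 and 92.7 CPM against 51.5, 59.5 and 55.1 CPM (-0.69 ± 0.10, adjusted p = 0.00149). Of 26 acute phase genes 6 fell, which is above the background share, and 3 rose (median -0.30). Saa1, serum amyloid A, was at 14142, 6785, 10358, 5950 and 4592 CPM against 4455, 2998 and 1677 CPM (-1.46 ± 0.42, adjusted p = 0.0354), with AF replicate 2 just under the lowest PF liver. Its call was lost on library totals, in the fit of 12 libraries in 3 groups and without AF replicate 6 or 7 or PF replicate 1 or 3, and the list counted 4, 9 and 2 lower without AF replicates 2, 6 and 7. Ly6d, a marker of immature hepatocytes, was at 0.888, 0.251, 0.599, 0.878 and 0.732 CPM against 39.0, 61.6 and 67.8 CPM (6.37 ± 0.29, adjusted p = 2.17e-06), and was the single member of 12 fetal liver genes (8 tested) that passed. This share, 12.5%, was near the 10.2% higher over all genes tested. Afp (-0.74, adjusted p = 0.274, edgeR) and H19 (1.63, adjusted p = 0.153) of the same list did not pass.

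Of 22 p53 targets, 21 of them tested, 6 rose and none fell (median 0.28), with 3 higher without AF replicate 7 (8 and 1 at an unadjusted p under 0.05, 6 and 0 in DESeq2 and in limma-voom). Cdkn1a, the cell cycle inhibitor p21, was at 4.04, 2.26, 3.03, 2.70 and 11.3 CPM against 23.4, 15.7 and 14.8 CPM (1.95 ± 0.46, adjusted p = 0.0164), and at 40.5 to 85.3 CPM in the other AF livers. PF replicate 5 was the highest PF liver for it and still below the AF livers over the cut. Mdm2, the feedback inhibitor of p53, did not pass (0.28, adjusted p = 0.0915). Of 26 cell cycle genes 1 passed of 25 tested, Ccnd1, cyclin D1, at 39.8, 25.1, 16.3, 22.6 and 26.7 CPM against 70.7, 25.8 and 97.1 CPM (1.31 ± 0.37, adjusted p = 0.0334), where AF replicate 6 lay inside the PF range. Its call was lost in limma-voom, without AF replicate 2 or 7 and without PF replicate 2, 3, 4 or 5. The count was 4 without AF replicate 6 and 0 without AF replicate 2 or 7.

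Markers of other cell types also differed between the groups, and their part in the results above was not tested. Of 11 Kupffer cell markers 8 rose and none fell (10 and 0 at an unadjusted p under 0.05, 9 and 0 in DESeq2, 8 and 0 in limma-voom; median 0.96, summed 745 to 1043 CPM in PF and 1431 to 2148 CPM over the cut). C1qa, a complement subunit of resident macrophages, was at 33.8, 36.3, 33.3, 37.7 and 46.1 CPM against 82.9, 61.5 and 80.9 CPM (1.00 ± 0.14, adjusted p = 0.00133). Of 12 markers of recruited macrophages 4 rose (6 without AF replicate 6 or on library totals), and the sum was 78.9 to 297 CPM in PF, 196 to 454 CPM over the cut and 858 to 1986 CPM in the other AF livers. Spp1, which is also a bile duct marker, held 296 to 956 CPM of the sum in the other AF livers. Mmp12, the macrophage elastase, was at 0.577 to 1.5 CPM in PF against 52.3, 24 and 61.5 CPM (5.59 ± 0.38, adjusted p = 2.47e-05), and Gpnmb, a marker of lipid-laden macrophages, at 0.222, 0.293, 0.150, 0.246 and 1.99 CPM against 103, 5.53 and 40.2 CPM (6.42 ± 0.94, adjusted p = 0.00184). AF replicate 6 was lowest for both.

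Of 18 stellate cell and matrix markers 8 rose (summed 208 to 511 CPM in PF and 463 to 1004 CPM over the cut), a count that was 1, 15 and 3 without AF replicates 2, 6 and 7. Col1a1, fibrillar collagen, was at 1.38, 0.586, 3.11, 3.72 and 5.20 CPM against 48.2, 5.57 and 12 CPM (2.96 ± 0.70, adjusted p = 0.0168), with AF replicate 2 far above AF replicate 6, which was close to the highest PF liver. The call was lost in limma-voom and without AF replicate 2. None of the 12 neutrophil markers passed in edgeR, DESeq2 or limma-voom, and 2 were lower at an unadjusted p under 0.05. Their sum was 61.5 to 1097 CPM in PF, where PF replicate 1 was the highest, and 104 to 151 CPM over the cut. Bile duct markers (1 of 7 tested higher) summed to 55.1 to 231 CPM in PF, 80.3 to 167 CPM over the cut and 363 to 1086 CPM in the other AF livers. Most of this sum was Spp1, which is also in the recruited macrophage list. Spp1 alone held 42.4 to 214 CPM in PF, 57.5 to 148 CPM over the cut and 296 to 956 CPM in the other AF livers. Of the endothelial markers 1 of 12 rose, and 0 of 10 tested T and NK cell and 0 of 8 tested B cell markers rose, with 1 lower in each (1 and 0 higher at an unadjusted p under 0.05, and none in DESeq2 or limma-voom). The endothelial call was lost without any 1 of the 3 AF livers, and the bile duct call without AF replicate 7. Red blood cell markers (4 higher and 1 lower of 6 tested, 2 higher without AF replicate 2) summed to 116 to 167 CPM in PF and 118 to 167 CPM over the cut, and pancreas and adipose markers to at most 15.3 CPM in any liver.

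**Figure D4:**
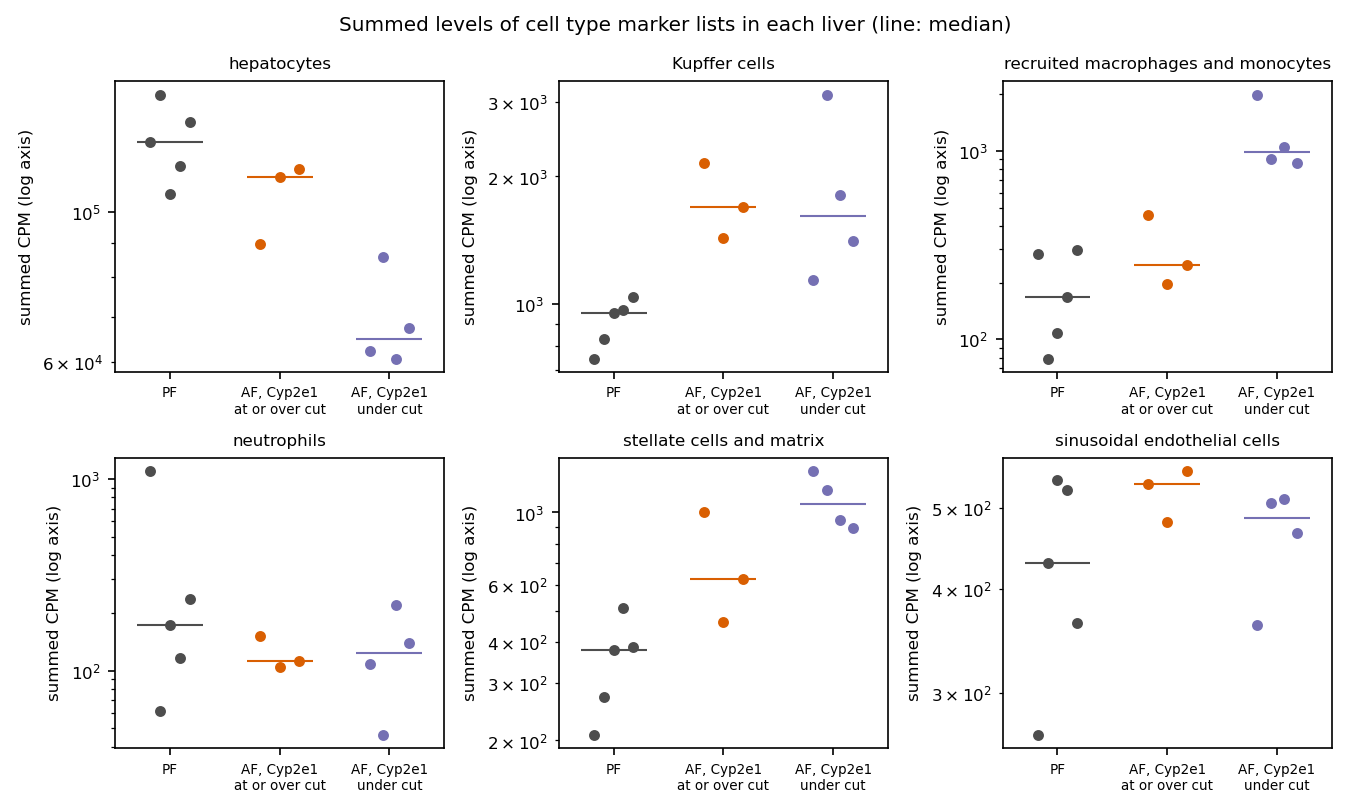
Summed CPM (log axis) of 6 marker lists in each liver, grouped as PF, AF over the Cyp2e1 cut and other AF, 1 point per liver with lines at the medians. Kupffer cell markers were higher over the cut (1431 to 2148 CPM) than in PF (745 to 1043 CPM), recruited macrophage and stellate markers had their highest medians in the other AF livers, and neutrophil markers were highest in 1 PF liver at 1097 CPM. Spp1, also a bile duct marker, held 296 to 956 CPM of the recruited macrophage sum in the other AF livers.

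Outside these lists, the largest changes of abundant genes with no overlap between the groups added transporters and signalling genes. Lepr, the leptin receptor, was at 2.53, 7.58, 6.48, 5.20 and 3.25 CPM against 41.8, 63.0 and 42.3 CPM (3.29 ± 0.31, adjusted p = 1.77e-04). Slc16a5, a monocarboxylate transporter, was at 6.26, 4.35, 11.3, 6.88 and 4.27 CPM against 47.7, 80.3 and 97.4 CPM (3.50 ± 0.32, adjusted p = 1.61e-04). Cd63, a tetraspanin of late endosomes, rose by 2.98 ± 0.34 and Arhgef2, a microtubule-bound guanine nucleotide exchange factor, by 2.78 ± 0.18. Ugt1a9, a glucuronosyltransferase, rose by 4.06 ± 0.22, but it shares exons with the other Ugt1a genes and its own level is uncertain. On the lower side, Slc10a2, the sodium-dependent bile acid transporter, was at 94.6, 112, 85.2, 123 and 127 CPM against 13.8, 11.4 and 3.18 CPM (-3.52 ± 0.42, adjusted p = 6.68e-04).

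Some changes were of the same size in AF livers with high and with low Cyp2e1. Among 76 genes past the threshold with no overlap, an absolute log2 change of 2 or more and an average level of 3 or more in log2 CPM, the smallest differences between the medians of the livers over the cut and the other AF livers were those of Msmo1, a sterol demethylating oxidase (0.02 on the log2 scale), F11, coagulation factor XI (0.03), Idi1 (0.04) and Abcc4 (0.05). F11 was at 105, 128, 112, 122 and 123 CPM in PF, at 17.1, 23.4 and 11 CPM over the cut and at 10.6, 20.5, 20.1 and 13.9 CPM in the others. Lss, of lanosterol synthesis, Gsta2, Hmgcs1, the cytosolic HMG-CoA synthase, Paox, a polyamine oxidase, and Fasn followed. Of these 9 genes 5 belong to sterol or fatty acid synthesis. The 76 genes also hold others of sterol synthesis, among them Sqle, Fdps and Nsdhl. The share of such genes among the 76 was not counted, so the 5 of 9 is a description only.

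Other genes separated the AF livers along the Cyp2e1 cut, staying inside the PF range in all 3 livers over the cut and lying beyond it in all 4 others. Of 7904 genes that averaged 3 or more in log2 CPM, 68 were below and 26 above the PF range in this way. These are descriptions, since the livers were chosen on the level of Cyp2e1, which itself lay below the PF range in all 7 AF livers. Inmt, an indolethylamine methyltransferase, was at 225, 426, 394, 302 and 268 CPM in PF, at 293, 327 and 241 CPM over the cut and at 25.9, 170, 43.4 and 39.4 CPM in the others. Hsd11b1, which regenerates active glucocorticoid, was at 494 to 705 CPM in PF, at 519, 598 and 580 CPM over the cut and at 150 to 282 CPM in the others. Cyp2f2, a P450 of the periportal zone, and Ces1d, a carboxylesterase, had the same pattern. On the opposite side, Spp1, osteopontin, was at 143, 42.4, 56.8, 110 and 214 CPM in PF, at 148, 74.0 and 57.5 CPM over the cut and at 956, 296, 387 and 638 CPM in the others, and Cd24a, a surface marker of progenitor and duct cells, shared this order.

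**Figure D5:**
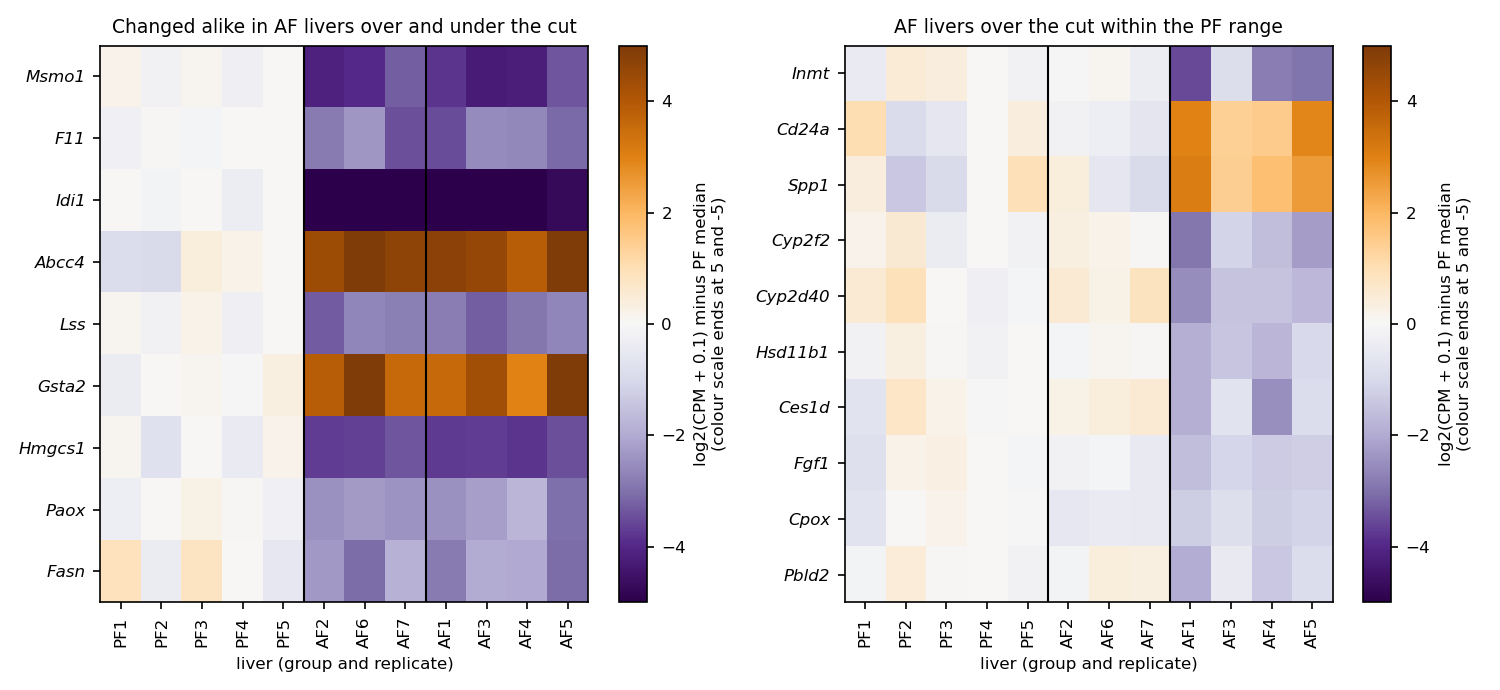
Colour gives the log2 level (CPM + 0.1) minus the PF median, with a scale that ends at 5 and -5, in each of the 12 livers for 9 genes of like size in AF livers with high and low Cyp2e1 and the 10 genes that separated the AF livers along the Cyp2e1 cut. In the first set the 3 livers over the cut and the 4 other AF livers lie at similar values, in the second the 3 livers over the cut are close to PF and the 4 others are not.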

How the data were processed

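Whole-liver poly(A) RNA of 5 PF and 7 AF mice was measured with stranded libraries (TruSeq). Per the methods and processing notes, the authors checked reads with FastQC 0.10.1, aligned them to the mouse genome (GRCm38) with TopHat2 2.0.13 and deposited raw HTSeq 0.10.0 read counts per Ensembl gene. The annotation and the strand setting of that counting are not given in the sources used here, so reads of overlapping or antisense genes and of paralogs may be split or lost. GENCODE M21 named 54165 of 54232 gene identifiers.

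AF libraries with Cyp2e1 of at least 3000 per 1000000 counts of the column were compared with PF. The members and gene lists were chosen with earlier results of these data known. Counts were tested with edgeR 4.0.16 (R 4.3.3; TMM, filterByExpr, quasi-likelihood, Benjamini-Hochberg over all genes, threshold 0.05), checked first on simulated data. The biological coefficient of variation was 0.221, and no library pair agreed within counting noise. Precision rests on 3 and 5 livers and on totals of 24129900 to 30578639 counts. CPM are TMM-scaled over 12 libraries. Lists are described by counts and medians, with no set test. Named genes were Cyp2e1, the 12 genes furthest from 0 on either side among those with no overlap that averaged 3 or more in log2 CPM, the largest members of each list in each direction with up to 2 abundant members not past the threshold, the 10 genes closest between AF livers over and under the cut, the 10 furthest from PF among genes for which the AF livers under it all left the PF range and those over it did not, and the 2 most abundant markers per list. Other genes named as list members were chosen after their values were seen. Alternatives were DESeq2 1.42.0, limma-voom (limma 3.58.1), other normalizations, filters, cuts and library sets. List counts without AF replicates 2, 6 or 7, and on library totals, were added after seeing the data. Promoter sequences were from RefSeq (GRCm38.p6). A few genes that these rules name are not reported here.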

Additional observations from a re-analysis of the deposited data

Results flagged for a closer look

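Among the 5 PF livers, 19 of 215 named genes had 1 liver whose distance to its nearest neighbour was large against the whole range of the group (Dixon's 95% limit for 5 samples). Chance alone flags about 1 in 20 groups, which gives 10.75 of 215, and the 3 AF livers over the cut are too few for this rule. PF replicate 1 was the liver in 10 of them. It was high for the neutrophil genes S100a9 (384 CPM) and S100a8 (246 CPM), the proliferation genes Pcna (23.6 CPM) and Mki67 (21.1 CPM), transferrin, Trf (5925 CPM), the lymphocyte gene Nkg7 (2.75 CPM) and the pancreatic gene Cela2a (0.489 CPM), and low for Glul (981 CPM), Cyp2c37 (323 CPM) and Pfkfb1 (45.7 CPM). PF replicate 2 was high for Cyp2e1 (11532 CPM), Fgf21 (1.30 CPM) and Cela1 (14.9 CPM). PF replicate 3 was low for Abcb4 (141 CPM) and high for Pnpla3 (9.85 CPM) and Il1rn (24.8 CPM), PF replicate 4 was low for Fth1 (1052 CPM), and PF replicate 5 was high for Slc7a11 (0.610 CPM) and Cdkn1a (11.3 CPM). With PF replicate 1 left out, 2699 genes passed in edgeR in place of 2848.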

How the results depend on the processing

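Counts of called genes moved most with the AF livers included. Against PF, all 7 AF livers gave 5635 calls (3116 higher, 2519 lower) in place of 2848. Leaving out 1 library at a time gave 1383 to 3343 calls, 700 to 1700 higher and 683 to 1643 lower, with the lowest of each without AF replicate 7. Library totals without factors gave 2394 higher and 793 lower, by construction of the scaling, which moved the median gene from 0.02 to 0.17. The other alternatives, which were DESeq2 (3548), limma-voom (2793), RLE factors (2840), 2 other filters (2724 and 2848) and 1 fit of 12 libraries in 3 groups (2929), stayed within 1.5 times 2848. The 3 other cuts on Cyp2e1 took the same 3 livers, so that their 2848 calls each repeat the main fit and are no check of it. Of 141 named genes past the threshold 91 passed in every alternative run on single genes that gave an adjusted p and 0 changed sign. The calls lost were 40 without AF replicate 7, 24 without AF replicate 2, 16 without AF replicate 6, 12 to 22 without single PF livers, 16 in the 3-group fit, 10 on library totals, 10 in limma-voom, 4 with every gene of at least 1 count and 0 in DESeq2 (which gave no adjusted p for 3), and the cause was not tested. No paired analysis was possible because the labels number the replicates within each group and name no pairs of AF and PF livers. With 3 and 5 livers and a choice made on an outcome, genes of low count such as Slc7a11 and Fgf21 in PF rest on few reads, and the fold of such genes depends on the prior count.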

Other observations

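Iron handling and cytoskeletal genes rose in the AF livers over the cut and are not described above. Of 18 iron genes 7 rose and none fell (median 0.27; 8 and 1 at an unadjusted p under 0.05, 7 and 0 in DESeq2 and in limma-voom), and without AF replicate 6 the count was 8 higher and 3 lower, and without AF replicate 7 it was 4 higher and 1 lower. The ferritin chains that store iron were among them. Fth1 was at 1198, 1199, 1175, 1052 and 1187 CPM in PF and at 1956, 3013 and 1855 CPM in AF replicates 2, 6 and 7 (0.97 ± 0.16, adjusted p = 0.00376, edgeR), and Ftl1 was at 624, 586, 458, 543 and 492 CPM against 850, 1639 and 1513 CPM (1.30 ± 0.20, adjusted p = 0.00236). All 3 livers over the cut were above PF for both. Ferritin genes have many processed copies, and the split of reads among them is uncertain. Of 22 annexin, keratin and cytoskeleton genes, 21 of them tested, 12 rose and none fell (median 0.74; 14 and 0 at an unadjusted p under 0.05 and in DESeq2, 12 and 0 in limma-voom), with 7 higher without AF replicate 7. Anxa2, a membrane-bound annexin, was at 17.9, 10.1, 16.2, 19.9 and 20 CPM against 59.6, 52.8 and 60.6 CPM (1.78 ± 0.19, adjusted p = 3.66e-04). Tubb2a, a beta-tubulin, was at 10.4, 7.87, 22.5, 14.7 and 26.3 CPM against 62.7, 88.8 and 74.9 CPM (2.20 ± 0.34, adjusted p = 0.00225). Both were uniform over the cut, and the other AF livers held Anxa2 at 102 to 177 CPM.

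Early response genes and the phosphatases of mitogen-activated kinases rose in part. The shares higher were 22.2% and 29.4% of those tested, against 10.2% over all genes tested. The shares lower were 5.6% and 5.9%, against 10.3%. Of 20 early response genes, 18 of them tested, 4 rose and 1 fell (median 0.01), and 1 rose and 0 fell without AF replicate 7. Myc, the growth regulator, was at 3.73, 2.18, 2.36, 4.56 and 1.54 CPM against 8.64, 9.80 and 10.4 CPM (1.74 ± 0.30, adjusted p = 0.00395), while AF replicate 1 held 34.0 CPM. Zfp36, which destabilises cytokine mRNA, was at 153, 204, 62.1, 68.8 and 122 CPM against 27.8, 64.0 and 21.3 CPM (-1.69 ± 0.47, adjusted p = 0.0314), so that AF replicate 6 lay in the PF range, and the call was lost without AF replicate 2 or 7 and without PF replicate 1, 2 or 5. Of 24 dual specificity phosphatases, 17 of them tested, 5 rose and 1 fell (median 0.31), and 3 rose without AF replicate 7. Dusp4, which acts on kinases of the ERK and JNK groups, was at 0.755, 1.26, 1.24, 1.19 and 0.813 CPM against 4.18, 6.37 and 5.02 CPM (2.30 ± 0.24, adjusted p = 3.28e-04). Dusp1 was at 51.9, 112, 32.6, 24.5 and 29.4 CPM against 18.7, 19.5 and 12.8 CPM (-1.56 ± 0.48, adjusted p = 0.0458), and this call was lost on library totals, in limma-voom, without any 1 of the 3 AF livers and without PF replicate 1 or 3.

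Of 18 clock genes 2 fell and none rose (5 and 0 at an unadjusted p under 0.05, 3 and 0 in DESeq2, 2 and 0 in limma-voom), namely Nr1d1, the repressor REV-ERBα (-1.12), and Hlf, a clock output factor (-0.73). The share lower, 11.1%, was near the 10.3% lower over all genes tested. Without AF replicate 7 the clock count was 1, with the Nr1d1 call lost, and the Hlf call was lost in the fit of 12 libraries in 3 groups. Of 17 methionine and transsulfuration genes 4 fell and 2 rose (2 and 0 without AF replicate 7), and of 21 glucose genes 3 fell and 2 rose (4 and 0 without it). For the methionine genes this was 23.5% lower and 11.8% higher. For the glucose genes it was 14.3% lower and 9.5% higher, near the 10.3% and 10.2% of all genes tested.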
